A study of Saccharomyces cerevisiae with 30 samples.

Results

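The libraries compared here came from 2 strains of the budding yeast Saccharomyces cerevisiae, a Gcn5 bromodomain mutant (Gcn5m) and wild type (WT), both sampled in sucrose medium. Each strain gave 3 RNA-seq libraries, so that 6 of the 30 libraries of the study enter the comparison. The genes described are all those whose mean over the deposited table was at least 1 FPKM (fragments scaled to transcript length and to the mapped fragments of the library), which left 5841 of 6101 genes. Gcn5m carries a mutated bromodomain in Gcn5, and the labels give neither the residues changed nor the way the allele was introduced. WT is strain BY4741, which is also the background of every mutant. Both strains were grown in rich medium with glucose (YPD) at 28 °C and were then moved for 30 min to yeast extract and peptone with 2% sucrose. The same 2 strains after 30 min in glucose, a bromodomain mutant of the SAGA subunit Spt7 (Spt7m) and an Ada3 acetylation mutant (Ada3-3KR, with WT libraries of its own) were sequenced as well, the mutants in both media. Nothing in the labels says whether the 3 libraries of a group came from separate cultures or from 1 clone, so the p-values below measure no more than how these libraries scatter, and that scatter may be technical.

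Gcn5 is the histone acetyltransferase of the SAGA coactivator, a large complex that acetylates nucleosomes at promoters, delivers the TATA-binding protein and removes ubiquitin from histone H2B. Its bromodomain is a small module that binds acetylated lysine. Sucrose is cleaved outside the cell by invertase, the product of the glucose-repressed gene SUC2, and a shift from glucose to another sugar relieves glucose repression of many genes of respiratory and alternative carbon metabolism. Genes with a TATA element in the promoter and genes of stress responses are known for their dependence on SAGA.

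The strains differed at a large share of the transcriptome, mostly by little. On log2(FPKM + 1), limma with Benjamini-Hochberg adjustment called 4125 of 5841 genes at an adjusted p under 0.05, which is 70.6% of genes tested. Of these, 1638 genes (28.0%) were higher and 2487 genes (42.6%) were lower in Gcn5m than in WT. Changes of at least 2-fold were called for 354 genes (6.06%), made up of 152 higher (2.6%) and 202 lower (3.46%) genes. A further 2957 called genes differed by less than 1.5-fold, and 1716 genes had no call. The 3 Gcn5m values lay wholly above or below the 3 WT values for 73.5% of genes, so the absence of overlap is common here, and an exact permutation test of 3 libraries against 3 cannot go below p = 0.1. The median log2 difference of all genes was −0.091. These figures are the background against which every gene list below is read. Differences are on the log2(FPKM + 1) scale, which understates the change of low genes, and ± gives the standard error of a difference.

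Within Gcn5m, Pearson's r between libraries on log2(FPKM + 1) across genes was 0.998 for replicates 1 and 2, and 0.992 and 0.993 for the pairs with replicate 3. Within WT it lay between 0.995 and 0.997, and between the strains between 0.959 and 0.965. The summed FPKM per library was 1152779.8 to 1193230.4 in Gcn5m and 1224984 to 1234573 in WT. The number of reads behind these values is not known, because only FPKM were deposited.

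**Figure D1:**
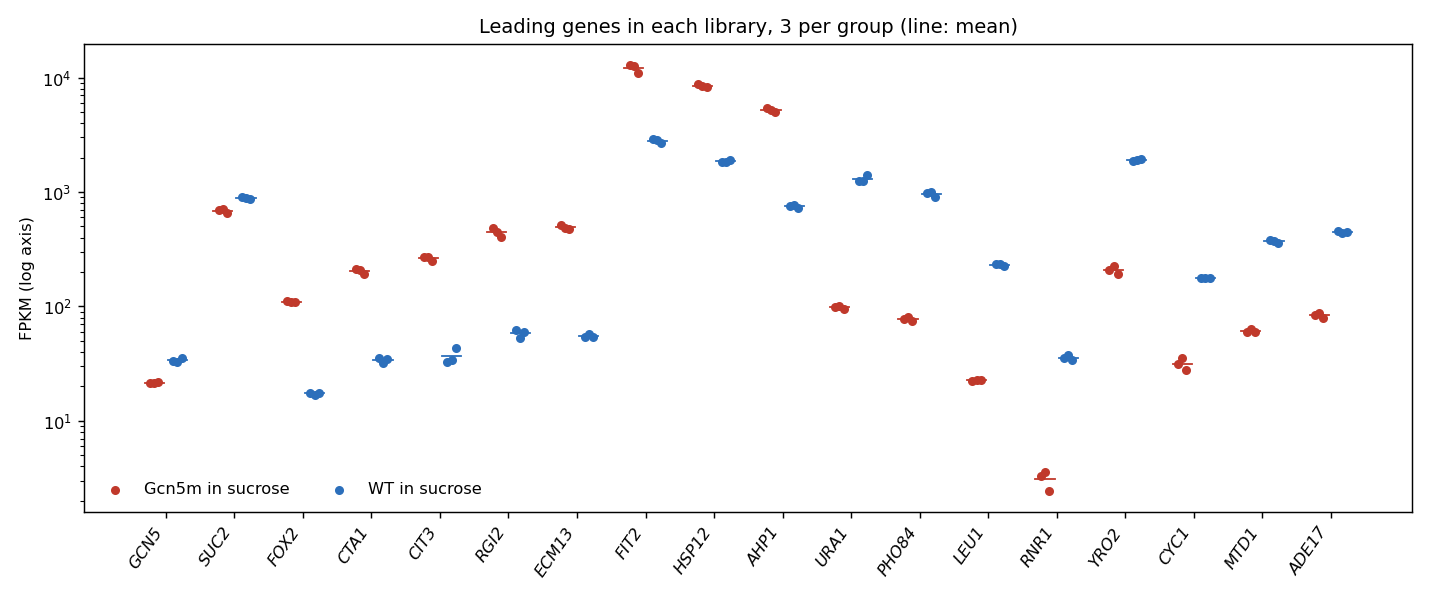
FPKM (log axis) of 18 genes in each of the 3 Gcn5m libraries (left of each pair) and the 3 WT libraries (right of each pair) in sucrose, with a line at the mean. FOX2, CTA1, CIT3, RGI2, ECM13, FIT2, HSP12 and AHP1 lie higher in Gcn5m, URA1, PHO84, LEU1, RNR1, YRO2, CYC1, MTD1 and ADE17 lie lower, and the libraries of a strain sit close together at each gene.

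The targeted gene itself was transcribed in the mutant. GCN5 had 21.6, 21.4 and 21.9 FPKM in Gcn5m, against 33.5, 32.5 and 35.2 FPKM in WT. All 3 Gcn5m values lay below all 3 WT values, and the difference was −0.62 ± 0.088 (limma adjusted p = 6.36e-06). The labels do not say that the mutation removes transcript, so this level does not check them. GCN5 was also lower than WT in Spt7m in sucrose, with a mean of 24.6 FPKM (−0.44 ± 0.088). Gcn5m against Spt7m was not called at this gene (−0.17 ± 0.088). Among the other members of the acetyltransferase module and of the related ADA complex, ADA2, which holds Gcn5 in the module, fell by 0.46 on the log2 scale, while AHC1 and AHC2, subunits of ADA, rose by 0.67 and 0.22. NGG1, which encodes Ada3, and SGF29, which reads methylated histone H3, were not called (−0.12 ± 0.066 and −0.06 ± 0.075). In the core of SAGA, 8 of 11 subunits were called lower and none higher, with a median of −0.17; after rescaling the libraries to a common median only 4 were called lower and 1 was called higher. The largest of these falls were HFI1 (−0.61 ± 0.11), TAF10 (−0.43 ± 0.059) and TAF5 (−0.43 ± 0.056). SPT7, the subunit with the other SAGA bromodomain, stood at 21.9, 25.4 and 24.8 FPKM in Gcn5m, against 28.3, 25.9 and 27.5 FPKM in WT, a difference of −0.17 ± 0.076 (limma adjusted p = 0.0482) that was lost in 8 of 15 alternative settings. Of the 4 subunits of the deubiquitinase module, UBP8, the ubiquitin protease, was called, and it fell by 0.77. No other subunit was called on the deposited scale, but 3 were called higher after quantile normalization and 2 after median rescaling.

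A selectable marker separated the strains. URA3, the orotidine phosphate decarboxylase gene that is deleted in BY4741, had 248, 254 and 223 FPKM in Gcn5m, against 1.46, 0.382 and 2.30 FPKM in WT. In Spt7m in sucrose it averaged 8335 FPKM. URA3 was therefore expressed in the mutants and near 0 in WT. Effects of the Gcn5 mutation and of this marker cannot be told apart at any gene of the comparison, those of uracil synthesis included. URA3 differed between Gcn5m and Spt7m as well, and its part in their differences was not tested. LEU2 and MET17, also deleted in BY4741, were listed at 0 in all 6 libraries. HIS3, a further marker of BY4741, had 119.9, 113 and 97.0 FPKM in Gcn5m, against 95.4, 92.3 and 88.4 FPKM in WT, with no overlap between the strains but a call that was lost without Gcn5m replicate 1 or 2 and without WT replicate 2 or 3. MFA1, the a-factor gene that marks mating type a, had 1427, 1624 and 1449 FPKM in Gcn5m, against 3058, 3141 and 3189.9 FPKM in WT. Both strains thus expressed this gene of mating type a, the mating type of BY4741.

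The genes of sucrose use changed little. SUC2, which encodes invertase, had 698, 706 and 663 FPKM in Gcn5m, against 908, 880.5 and 868 FPKM in WT. Every Gcn5m library lay below every WT library, and the fall was small at −0.36 ± 0.054 (limma adjusted p = 9.89e-06). Of the 14 genes of sucrose and maltose use, 4 were higher and 3 lower, with a median of −0.064 that became 0.13 after quantile normalization. IMA3 and IMA4, isomaltases that are near-identical copies of each other, differed by 0.85 and 0.83, and the counting may have split their reads. Hexose transport moved more. Of 20 tested genes (of 21 listed), 12 were higher and 4 lower, with a median of 0.54.

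The high-affinity glucose transporter HXT7 had 8001, 7952 and 7713 FPKM in Gcn5m, against 3178, 3239 and 3399 FPKM in WT, a difference of 1.27 ± 0.045. HXT6, a near copy of HXT7, differed by 1.29, and the split of reads between them is uncertain. HXT2, another high-affinity transporter, and HXT3, a low-affinity transporter, rose by 1.21 and 1.07. HXK1, a hexokinase, had 5214, 5108 and 4808 FPKM in Gcn5m, against 2423, 2385 and 2348 FPKM in WT, again without overlap (1.08 ± 0.041). ADH2, the glucose-repressed alcohol dehydrogenase that oxidises ethanol, had 1171, 1158 and 1073 FPKM in Gcn5m, against 402, 426 and 344 FPKM in WT, and all Gcn5m values stood above all WT values. Its difference was 1.54 ± 0.10 (limma adjusted p = 3.8e-10). GAL1, the galactokinase, was not called (0.028 ± 0.11, limma adjusted p = 0.824), and on this build it overlaps another annotated RNA on the same strand.

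Peroxisomal fatty acid oxidation was the most raised gene list by its median. Of 22 genes of the pathway and its regulators, 19 were called higher and 1 lower, 13 of them higher by at least 2-fold, and the median was 1.32 against −0.091 over all genes. The list was compiled after these values had been seen, so its count describes and does not test. POX1, the acyl-CoA oxidase that opens each round of beta-oxidation, had 186, 176 and 179.6 FPKM in Gcn5m, against 32.7, 31.0 and 30.4 FPKM in WT. FOX2, the multifunctional enzyme of the next steps, had 111, 109.9 and 109 FPKM in Gcn5m, against 17.6, 16.9 and 17.5 FPKM in WT. POT1, the thiolase that closes the round, had 214, 194 and 189.8 FPKM in Gcn5m, against 32.4, 33.5 and 35.1 FPKM in WT. None of these genes overlapped between the strains, and their differences were 2.49 ± 0.08, 2.60 ± 0.045 and 2.53 ± 0.077. CTA1, the peroxisomal catalase that removes the hydrogen peroxide made by Pox1, had 215, 209 and 193 FPKM in Gcn5m, against 35.2, 32.3 and 34.4 FPKM in WT, a difference of 2.56 ± 0.063. FAA2, a peroxisomal acyl-CoA synthetase, SPS19, a dienoyl-CoA reductase, and LPX1, a peroxisomal lipase, rose by 1.57, 1.71 and 2.00. FAA2 overlaps BUD25 on the other strand, and as no strand setting is given in the sources used here their reads cannot be told apart.

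In peroxisome biogenesis, 16 of 22 genes were higher and 1 lower, with a median of 0.41. This list too was compiled after the values had been seen, so its count describes and does not test. PEX9, an import receptor known from oleate-grown cells, had 14.8, 15.7 and 14.3 FPKM in Gcn5m, against 2.50, 3.59 and 2.97 FPKM in WT (1.99 ± 0.12), and PEX11, which drives peroxisome division, rose by 1.31. The transcription factors Oaf1 and Pip2 activate the pathway in oleate through the oleate response element, here written as CGG and CCG separated by 15 to 18 bases and searched on both strands from 350 to 101 bases before each start codon. This window held a match for 14 of the 22 genes of the fatty acid oxidation list (63.6%), against 5.44% of 5759 promoters of the genome and 18.6% of the promoters of genes at least 2-fold higher in Gcn5m. That list was compiled after the values had been seen, and the 2-fold set overlaps it, so these shares describe and do not test. FOX2 is shown as the gene of the fatty acid oxidation list with the largest change that has a match. Its window holds 2 such elements, which stand in capitals (RefSeq, build R64, chrXI:457155-457404, minus strand, 5′ to 3′).
FOX2: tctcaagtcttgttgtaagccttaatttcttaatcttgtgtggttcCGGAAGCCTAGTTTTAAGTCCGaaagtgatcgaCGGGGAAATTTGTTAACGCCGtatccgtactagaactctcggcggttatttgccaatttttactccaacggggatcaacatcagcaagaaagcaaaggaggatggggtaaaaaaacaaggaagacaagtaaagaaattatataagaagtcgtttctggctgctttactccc
A match describes these letters and is not a mapped binding site.

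CAT2, the carnitine acetyltransferase that moves acetyl units between compartments, had 407, 391 and 399 FPKM in Gcn5m, against 81.1, 78.9 and 86.3 FPKM in WT (2.27 ± 0.075). The named genes of the methylcitrate cycle, which uses propionyl-CoA, likewise did not overlap between the strains. CIT3, the mitochondrial citrate and methylcitrate synthase, had 271, 269 and 248 FPKM in Gcn5m, against 32.5, 33.9 and 43.6 FPKM in WT, a difference of 2.82 ± 0.14. PDH1, a methylcitrate dehydratase, had 1027, 1005 and 989 FPKM in Gcn5m, against 151, 153 and 162 FPKM in WT. ICL2, the methylisocitrate lyase that completes the methylcitrate cycle, had 409, 405 and 396 FPKM in Gcn5m, against 77.2, 74.0 and 86.2 FPKM in WT. All 3 genes of the cycle were thus higher in every Gcn5m library, by 2.82, 2.69 and 2.34. RGI2, which is induced during respiratory growth, had 482, 444 and 406 FPKM in Gcn5m, against 62.8, 53.0 and 60.2 FPKM in WT (2.90 ± 0.17).

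The wider list of gluconeogenesis and the glyoxylate cycle, which contains several of these genes, had 19 of 28 members higher and 5 lower, with a median of 1.06. It did not move as a block. PCK1, the phosphoenolpyruvate carboxykinase that commits carbon to gluconeogenesis, had 88.1, 87.7 and 85.3 FPKM in Gcn5m, against 319, 316 and 307 FPKM in WT, a fall of 1.84 on the log2 scale, with every Gcn5m library below every WT library. In glycolysis, 6 of 27 genes were higher and 16 lower (median −0.21). PDC1, the main pyruvate decarboxylase, fell by 1.23, and TDH2, a glyceraldehyde phosphate dehydrogenase with near copies, differed by −1.06.

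In the tricarboxylic acid cycle 9 of 20 genes were higher and 9 lower, and the median was −0.037 (0.039 after median rescaling). IDH1 and IDH2, the subunits of the NAD-linked isocitrate dehydrogenase, rose by 1.53 and 1.32. The respiratory chain and ATP synthase list leaned the other way, with 5 of 36 genes higher and 25 lower and a median of −0.32. CYC1, the main cytochrome c, had 31.6, 35.4 and 27.8 FPKM in Gcn5m, against 179, 176 and 178 FPKM in WT, and its fall of 2.46 was the largest of the list. QCR6, a subunit of the cytochrome bc1 complex, fell by 0.94, while HAP4, the activating subunit of the regulator of respiratory genes, rose by 1.24 and the external NADH dehydrogenase NDE2 by 1.46. Mitochondrial ribosomal proteins rose by small amounts, with 52 of 63 genes higher and none lower (median 0.32). MRP1 had 174, 167 and 162 FPKM in Gcn5m, against 107, 106 and 96.3 FPKM in WT, and its difference of 0.70 ± 0.05 was among the larger of the list.

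General stress genes were mostly higher. Of 56 tested genes of the type controlled by the stress activators Msn2 and Msn4 (of 57 listed), 37 were higher and 12 lower, with a median of 0.40. HSP12, a membrane-protecting small heat shock protein, had 8753, 8436 and 8322 FPKM in Gcn5m, against 1833, 1838 and 1889 FPKM in WT, and the strains were far apart (2.20 ± 0.044, limma adjusted p = 3.16e-17). FMP45, a membrane protein of the cell cortex, and HSP26, a small heat shock chaperone, rose by 1.82 and 1.36. Members fell as well. YRO2, a plasma membrane protein of the Hsp30 family, had 210.2, 224 and 194 FPKM in Gcn5m, against 1880.4, 1921 and 1952 FPKM in WT, far lower in every Gcn5m library (−3.19 ± 0.078), and YGP1, a secreted glycoprotein, fell by 1.42.

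The stress response element AGGGG, searched on both strands of the same window, was found for 83.9% of the stress list, 20.2% of all promoters, 38.6% of genes at least 2-fold higher and 13.6% of genes at least 2-fold lower. The window of HSP12 is shown as the strongest riser of the list (RefSeq, build R64, chrVI:106906-107155, plus strand), with its 2 elements, read from the other strand as CCCCT, in capitals.
HSP12: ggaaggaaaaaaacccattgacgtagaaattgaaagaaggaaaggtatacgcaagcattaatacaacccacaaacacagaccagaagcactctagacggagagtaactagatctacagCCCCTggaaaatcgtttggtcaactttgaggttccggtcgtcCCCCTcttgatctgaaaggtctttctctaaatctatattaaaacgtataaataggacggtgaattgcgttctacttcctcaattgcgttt
Heat shock chaperones split evenly, with 14 of 30 higher and 13 lower (median 0.043). The cytosolic HSP70 gene SSA2, which has near copies, fell by 0.66 and its co-chaperone YDJ1 by 0.94.

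Genes of oxidative defence and of the proteasome were mostly higher. Of 29 genes of oxidative defence, 16 were higher and 5 lower (median 0.40). AHP1, a thiol peroxiredoxin, had 5435, 5236 and 4995 FPKM in Gcn5m, against 762, 777 and 724 FPKM in WT, and the strains did not overlap (2.79 ± 0.057). TSA1, the main cytosolic peroxiredoxin, and SOD1, the copper-zinc superoxide dismutase, rose by 1.16 and 1.38. Proteasome subunits rose together by small amounts, with 31 of 35 higher and 1 lower and a median of 0.32. PRE3, a catalytic subunit, had 501, 504 and 478 FPKM in Gcn5m, against 267, 267 and 287 FPKM in WT (0.85 ± 0.051). NCE103, the carbonic anhydrase, had 1051, 997 and 953 FPKM in Gcn5m, against 162, 155 and 166 FPKM in WT, a rise of 2.63 ± 0.063.

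Iron genes formed another raised list. Of 30 genes of the regulon of the iron-sensing activators Aft1 and Aft2 and related genes, 24 were higher and 3 lower, 11 of them higher by at least 2-fold, with a median of 0.73. FIT2, a cell wall mannoprotein that retains siderophores, had 12845, 12537 and 10913 FPKM in Gcn5m, against 2939, 2838 and 2669 FPKM in WT. FIT3, of the same family, had 9438, 9163 and 8293 FPKM in Gcn5m, against 2634, 2623 and 2259 FPKM in WT. Both genes were higher in every Gcn5m library (2.10 ± 0.075 and 1.84 ± 0.071). TIS11, which directs the decay of transcripts for iron-using proteins, had 275, 275 and 267 FPKM in Gcn5m, against 71.0, 73.2 and 63.9 FPKM in WT (1.96 ± 0.059). ISU1, the scaffold for iron-sulfur cluster assembly, had 3751, 3708 and 3506 FPKM in Gcn5m, against 927, 893 and 1015 FPKM in WT (1.95 ± 0.048). The Aft1 core TGCACCC, searched on both strands, was found for 16 of 30 promoters of the list (53.3%), 1.27% of all promoters, 11.7% of genes at least 2-fold higher and none of the 199 promoters of genes at least 2-fold lower. FIT2 is shown as the gene of the list with the largest change that has a match (RefSeq, build R64, chrXV:1059181-1059430, plus strand). Its window holds 4 matches, in capitals.
FIT2: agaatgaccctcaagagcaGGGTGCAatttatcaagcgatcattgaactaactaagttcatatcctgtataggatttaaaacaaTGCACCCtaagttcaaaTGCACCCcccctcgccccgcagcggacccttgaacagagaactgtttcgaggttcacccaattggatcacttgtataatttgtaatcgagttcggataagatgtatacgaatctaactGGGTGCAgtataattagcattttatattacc
Among zinc and copper genes, 6 of 18 tested (of 19 listed) were higher and 9 lower, against 7 and 7 after quantile normalization and 8 and 7 after median rescaling. The metallothionein genes CUP1-1 and CUP1-2, near-identical copies whose reads cannot be assigned, were listed with differences of −1.93 and −2.11. IZH4, a zinc-linked membrane protein, fell by 2.28.

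The phosphate regulon had the lowest median of the lists compared (−0.99). Of 25 genes, 22 were lower and 3 higher, and 12 fell by at least 2-fold. PHO84, the high-affinity phosphate transporter, had 77.3, 81.1 and 74.2 FPKM in Gcn5m, against 974, 997 and 910.2 FPKM in WT. The lowest WT value stood far above the highest Gcn5m value (−3.61 ± 0.067, limma adjusted p = 9.94e-18). A noncoding RNA is annotated on the opposite strand of PHO84, and its reads cannot be told apart from those of the gene without the strand setting. PHO89, the sodium-coupled phosphate transporter, had 146, 146 and 139 FPKM in Gcn5m, against 825, 818 and 798 FPKM in WT (−2.49 ± 0.046). SPL2, a small regulator of low-affinity phosphate uptake, had 2.48, 2.93 and 2.35 FPKM in Gcn5m, against 20.5, 21.3 and 22.0 FPKM in WT (−2.64 ± 0.09). PHM6 had 6.34, 7.88 and 6.40 FPKM in Gcn5m, against 42.3, 46.0 and 44.2 FPKM in WT (−2.53 ± 0.16). All of these genes were low in every Gcn5m library. PHO11 and PHO12 encode secreted acid phosphatases and are near-identical copies, so the division of reads between them is uncertain. PHO11 was listed with 11.5, 11.5 and 9.74 FPKM in Gcn5m, against 94.0, 92.1 and 91.7 FPKM in WT. PHO12 was listed with 15.1, 16.2 and 13.2 FPKM in Gcn5m, against 130.3, 129.6 and 127 FPKM in WT. Their differences were −2.98 and −3.04, and PHO3, a further acid phosphatase, fell by 1.67.

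The binding core of the phosphate regulator Pho4, CACGTG, which reads the same on both strands, was found in the window for 13 of the 25 genes (52%), 3.86% of all promoters and 6.03% of genes at least 2-fold lower. PHO12 is shown as the gene with the largest fall that has a match (RefSeq, build R64, chrVIII:551749-551998, plus strand), with the core in capitals.
PHO12: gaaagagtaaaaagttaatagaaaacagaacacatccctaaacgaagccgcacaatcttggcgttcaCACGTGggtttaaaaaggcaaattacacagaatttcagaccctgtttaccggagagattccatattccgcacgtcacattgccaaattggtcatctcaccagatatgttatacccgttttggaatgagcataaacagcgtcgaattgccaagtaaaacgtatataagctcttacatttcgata

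Genes of amino acid synthesis differed unevenly. Of 44 genes of the type activated by Gcn4, 28 were lower and 5 higher, with a median of −0.28. LEU1, the isopropylmalate isomerase of leucine synthesis, had 22.4, 22.7 and 22.6 FPKM in Gcn5m, against 237, 236 and 224 FPKM in WT, with the Gcn5m libraries nearly equal and all low (−3.31 ± 0.082). ILV3, the dihydroxyacid dehydratase shared by the branched-chain pathways, had 161, 163 and 148 FPKM in Gcn5m, against 770.2, 761 and 802 FPKM in WT. BAT1, the mitochondrial branched-chain transaminase, had 81.1, 82.3 and 80.1 FPKM in Gcn5m, against 369, 369 and 345 FPKM in WT. Both lay lower in every Gcn5m library, by 2.30 and 2.14, and LEU9, an isopropylmalate synthase, fell by 1.35. CPA1, the small subunit of the arginine-pathway carbamoyl phosphate synthetase, moved the other way (835, 794 and 778 FPKM in Gcn5m, against 362, 351 and 366 FPKM in WT). GDH1, the main glutamate dehydrogenase of ammonium assimilation, fell by 2.12. LEU1 is shown as the gene of the Gcn4-type list with the largest change whose window holds the site of the leucine regulator Leu3 (CCGG and CCGG with 2 bases between them). The site reads the same on both strands and occurs in 7 of 5759 promoters (0.122%), 3 of them among the genes that fell by at least 2-fold (RefSeq, build R64, chrVII:478753-479002, minus strand, site in capitals).
LEU1: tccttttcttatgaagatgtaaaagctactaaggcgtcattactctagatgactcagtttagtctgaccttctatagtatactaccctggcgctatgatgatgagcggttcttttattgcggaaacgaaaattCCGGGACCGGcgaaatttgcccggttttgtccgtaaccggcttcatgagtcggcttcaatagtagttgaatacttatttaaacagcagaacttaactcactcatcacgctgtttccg

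Nucleotide and one-carbon genes were lower. URA1, the dihydroorotate dehydrogenase of uracil synthesis, had 99.0, 100 and 95.9 FPKM in Gcn5m, against 1261, 1244 and 1397 FPKM in WT, the largest called fall among genes without near copies (−3.71 ± 0.051, limma adjusted p = 3.71e-19). URA4, the dihydroorotase, fell by 1.66, and the uracil permease FUR4 by 1.27. Of 16 pyrimidine genes other than URA3, a list compiled after the values were seen, 14 were lower and 1 higher (median −0.56). URA3 itself was expressed in Gcn5m and near 0 in WT, as given above, and its part in these falls was not tested. In Spt7m, where URA3 was far higher than in Gcn5m, URA1 averaged 96.1 FPKM, close to its 98.3 FPKM in Gcn5m.

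In purine synthesis, 18 of 21 tested genes (of 22 listed) were lower and 1 higher, with a median of −0.69. ADE17, which carries out the last steps to inosine monophosphate, had 84.0, 87.2 and 79.6 FPKM in Gcn5m, against 456, 442 and 448 FPKM in WT (−2.41 ± 0.039). ADE4, which catalyses the committed step, had 34.9, 41.1 and 36.4 FPKM in Gcn5m, against 136, 135 and 127 FPKM in WT (−1.80 ± 0.055). Glycine and one-carbon metabolism had 12 of 14 genes lower and 1 higher (median −0.69). MTD1, a cytosolic methylenetetrahydrofolate dehydrogenase, had 59.5, 63.4 and 60.3 FPKM in Gcn5m, against 380.5, 374 and 358 FPKM in WT (−2.58 ± 0.053). SHM2, the cytosolic serine hydroxymethyltransferase, fell by 1.51. SER3 of the serine pathway had 79.6, 74.8 and 0.243 FPKM in Gcn5m, against 182, 183 and 179.7 FPKM in WT. It was not called, and Gcn5m replicate 3 stood far below the other Gcn5m libraries. Biotin synthesis fell at BIO2, the biotin synthase (−2.12 ± 0.11), while the biotin precursor permease BIO5 rose by 0.73.

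Ribosome genes were lower almost throughout, by modest amounts. Of 102 ribosome biogenesis genes, 98 were lower and none higher (1 was called higher after median rescaling), with a median of −0.54. Of 137 cytosolic ribosomal protein genes, 130 were lower and none higher, with a median of −0.43. Of these, 2 ribosome biogenesis genes and 1 ribosomal protein gene fell by at least 2-fold. ESF2, a pre-rRNA processing factor, had 23.0, 29.9 and 25.4 FPKM in Gcn5m, against 59.6, 57.9 and 50.9 FPKM in WT (−1.08 ± 0.077). BFR2, a factor of small subunit assembly, had 15.7, 16.2 and 15.4 FPKM in Gcn5m, against 36.2, 33.6 and 33.1 FPKM in WT (−1.07 ± 0.056). The ribosomal protein gene RPL18B had 221, 204 and 187 FPKM in Gcn5m, against 422, 403 and 441 FPKM in WT (−1.05 ± 0.05). Subunits of RNA polymerases I and III were lower in 26 of 37 cases and higher in 1 (median −0.35). After quantile normalization, 97 ribosome biogenesis and 118 ribosomal protein genes were still called lower.

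Genes of the G1/S transition and S-phase entry fell. Of 32 genes, 27 were lower and 1 higher, 13 of them lower by at least 2-fold, and the median was −0.81. RNR1, the large subunit of ribonucleotide reductase, had 3.29, 3.60 and 2.45 FPKM in Gcn5m, against 35.5, 37.6 and 33.8 FPKM in WT (−3.17 ± 0.08). It was low in every Gcn5m library, and genes of cell cycle entry were low beside it. CLN2, a G1 cyclin, had 5.17, 5.08 and 5.34 FPKM in Gcn5m, against 22.1, 20.7 and 20.2 FPKM in WT. PCL1, a G1 cyclin that pairs with Pho85, had 5.25, 3.99 and 3.69 FPKM in Gcn5m, against 26.6, 23.1 and 23.1 FPKM in WT. POL30, the DNA polymerase clamp, had 5.38, 6.19 and 4.98 FPKM in Gcn5m, against 23.4, 29.7 and 25.7 FPKM in WT. All 4 genes lay lower in every Gcn5m library, the last 3 by 1.83, 2.26 and 2.06. In bulk libraries, fewer cells of a stage and less RNA per cell cannot be told apart. The MluI cell cycle box ACGCGT, which reads the same on both strands, was found in the window for 15 of the 32 genes (46.9%), 3.44% of all promoters and 11.6% of genes at least 2-fold lower. RNR1 is shown as the largest fall with a match (RefSeq, build R64, chrV:298600-298849, plus strand, box in capitals).
RNR1: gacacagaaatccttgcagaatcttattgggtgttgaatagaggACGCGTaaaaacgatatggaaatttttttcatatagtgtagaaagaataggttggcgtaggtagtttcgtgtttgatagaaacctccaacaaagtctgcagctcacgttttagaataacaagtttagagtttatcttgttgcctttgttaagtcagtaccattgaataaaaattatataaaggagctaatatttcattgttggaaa

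Later cell cycle genes did not move together. Of 27 tested genes of mitosis and the M/G1 interval (of 28 listed), 11 were higher and 14 lower (median −0.31). DSE4 and SCW11, glucanase-family proteins of the daughter cell wall, rose by 1.23 and 1.17, while SWI5, an activator of M/G1 genes, fell by 1.23 and FAR1, the pheromone-responsive cyclin kinase inhibitor, by 1.31. Histone genes, which are transcribed in S phase, were raised: 10 of 11 were higher and 1 was lower, with a median of 0.75. HHF2, a histone H4 gene, had 1406, 1451 and 1404 FPKM in Gcn5m, against 564, 623 and 494 FPKM in WT (1.35 ± 0.067). HTA1, a histone H2A gene, had 1587, 1622 and 1641 FPKM in Gcn5m, against 717, 722 and 737 FPKM in WT (1.16 ± 0.056). Each has a near-identical partner gene, and the division of reads between the copies is uncertain.

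Surface and lipid genes were mostly lower. Of 31 tested cell wall genes (of 33 listed), 22 were lower and 3 higher (median −0.56). SCW10, a wall glucanase-like protein, had 178, 173 and 148 FPKM in Gcn5m, against 508, 494 and 505 FPKM in WT (−1.59 ± 0.058), and UTR2, a chitin transglycosylase, fell by 1.56. In ergosterol synthesis 20 of 26 genes were lower and 3 higher (median −0.58), and ERG5, the sterol desaturase, had 21.9, 17.2 and 19.2 FPKM in Gcn5m, against 81.6, 87.4 and 87.7 FPKM in WT (−2.09 ± 0.08). ERG11, the lanosterol demethylase, fell by 1.43. Fatty acid synthesis and desaturation had 8 of 13 genes lower and 4 higher (median −0.64), with falls at OLE1, the only fatty acid desaturase of yeast (−1.47 ± 0.04), and at FAS1, a fatty acid synthase subunit (−1.33 ± 0.044). Inositol and phospholipid synthesis had 12 of 18 genes lower and none higher (median −0.50), but 3 were called higher under either other scaling. HNM1, the choline transporter, fell by 1.68. INO1, the inositol phosphate synthase known for its dependence on Gcn5 and SAGA, was not called (−0.16 ± 0.096, limma adjusted p = 0.155).

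Mating genes of an a cell were lower in 23 of 27 tested cases and higher in 2, with a median of −0.57. MFA1 fell by 1.06, and STE3, the receptor that marks alpha cells, was low at 1.31, 0.943 and 0.732 FPKM in Gcn5m, against 3.79, 3.22 and 3.99 FPKM in WT. Other alpha-type markers were not near 0. HMLALPHA2, which has a near copy, had 27.8, 29.4 and 27.0 FPKM in Gcn5m, against 32.1, 30.6 and 32.1 FPKM in WT. MF(ALPHA)2 had 8.62, 7.95 and 8.57 FPKM in Gcn5m, against 10.7, 10.9 and 10.7 FPKM in WT.

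Regulators of chromatin varied little. Of 13 other histone acetyltransferases, 4 were higher and 6 lower (median 0.0019), and either other scaling left 3 of them lower. Of 15 histone deacetylases none was higher and 5 were lower, but 2 were higher and 4 lower under either other scaling. ELP3, of the Elongator complex, fell by 0.75, and HST3, a sirtuin, by 0.96. HPA3 rose by 0.90, the largest change of the acetyltransferase list, and it overlaps another gene on the opposite strand. Of 9 other bromodomain proteins, 4 were higher and none lower: BDF1 and BDF2, which bind acetylated histone H4, rose by 0.65 and 0.40. Subunits of SWI/SNF, RSC and the Mediator tail were higher in 3 and lower in 8 of 14 tested cases (of 17 listed).

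**Figure D2:**
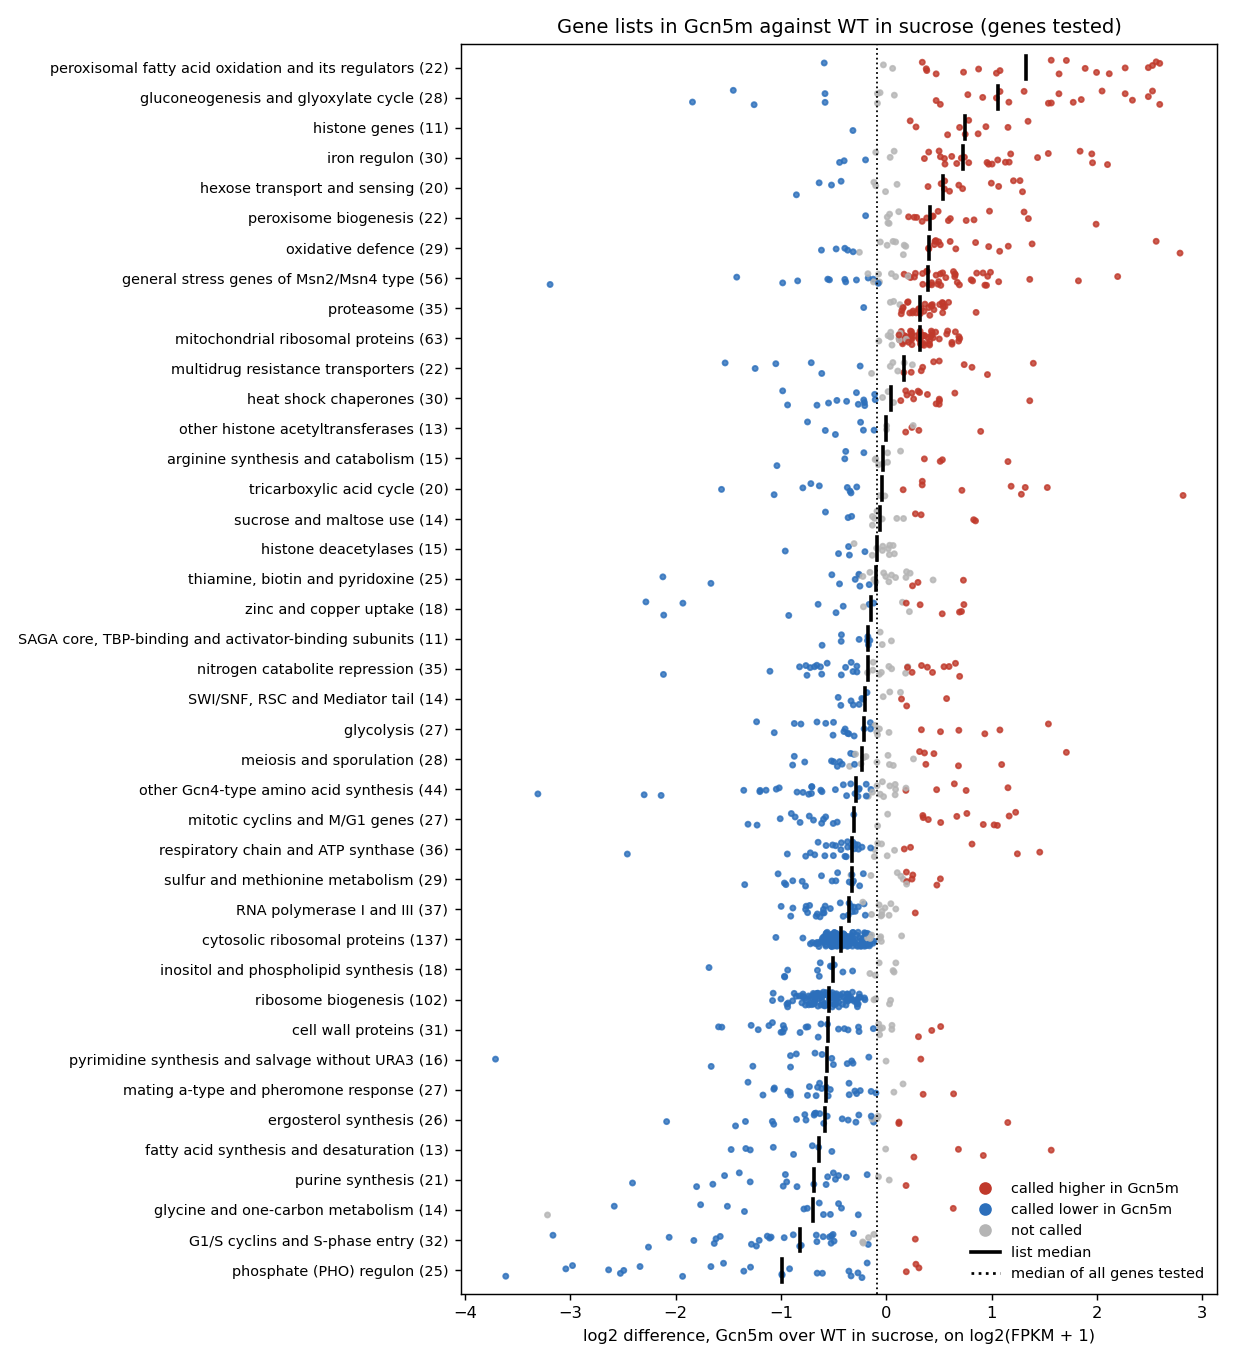
Log2 difference, Gcn5m over WT in sucrose, of each tested gene (points) in the lists with at least 11 tested genes, ordered by list median (bar); red and blue points were called higher and lower, grey points were not called, and the dotted line is the median of all genes (−0.091). Peroxisomal fatty acid oxidation and gluconeogenesis lie at the top, the phosphate regulon and the G1/S genes at the bottom, and the ribosomal lists form narrow clouds left of the dotted line.

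The other lists were mixed, among them nitrogen catabolite repression (9 of 35 higher, 17 lower), sulfur and methionine metabolism (6 of 29 higher, 17 lower), multidrug transporters (10 of 22 higher, 6 lower), arginine metabolism (4 of 15 higher, 4 lower), meiosis and sporulation (7 of 28 higher, 11 lower) and thiamine, biotin and pyridoxine genes (3 of 25 higher, 8 lower). The galactose pathway had 5 of 8 tested genes higher and 2 lower, and low-oxygen mannoproteins had 2 of 9 tested (of 12 listed) higher and 3 lower. Alpha-type and diploid markers had none of 6 tested (of 8 listed) higher and 3 lower, and the marker genes of BY4741 had 2 of 6 tested (of 8 listed) higher and 2 lower. The balance of several of these lists moved with the scaling. Thiamine, biotin and pyridoxine genes had 9 higher and 5 lower after quantile normalization and 6 of each after median rescaling. Meiosis and sporulation had 8 higher and 7 lower after quantile normalization. Low-oxygen mannoproteins had 3 higher and 2 lower after quantile normalization and 3 of each after median rescaling. Alpha-type markers had 1 of each under either. Arginine metabolism had 5 higher under either, with 3 lower after quantile normalization and 4 after the other. The marker genes of BY4741 had 3 higher and 2 lower under either. Outside the lists, ECM13 showed the largest rise after URA3, with 510.4, 489 and 473 FPKM in Gcn5m, against 54.2, 57.4 and 54.1 FPKM in WT (3.13 ± 0.057). SPG4, known from stationary phase, had 460.3, 455 and 426 FPKM in Gcn5m, against 85.0, 86.5 and 92.9 FPKM in WT (2.33 ± 0.068). YIG1 had 75.2, 70.4 and 69.2 FPKM in Gcn5m, against 9.59, 8.38 and 10.8 FPKM in WT (2.78 ± 0.12). These genes were higher in every Gcn5m library, and the next was lower in every one. MGA1, a protein related to heat shock factor, had 8.80, 7.59 and 8.96 FPKM in Gcn5m, against 49.9, 45.8 and 47.8 FPKM in WT (−2.37 ± 0.055). YIL177C, a subtelomeric gene with many near-identical copies, was listed at 0 in all 3 Gcn5m libraries and at 294, 315 and 35.1 FPKM in WT, and no fold is given for it.

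TATA elements were common on both sides of the comparison. The element (TATA, A or T, A, A or T, A or G), searched on both strands of the same window, was present for 55.9% of genes at least 2-fold higher, 48.2% of genes at least 2-fold lower, 33.7% of genes with no call and 34.1% of all promoters.

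The same mutation had also been profiled in glucose, in libraries of its own. There 3621 genes (62.0%) were called, 1216 higher (20.8%) and 2405 lower (41.2%). Other scalings changed that split, to 1708 higher and 1789 lower with quantile normalization and 1634 higher and 1899 lower with median rescaling. Between media, 872 genes were higher in both, which is 53.2% of the sucrose calls and 71.7% of the glucose calls, and 1754 were lower in both, 70.5% and 72.9% of the calls. Another 178 genes were higher in sucrose and lower in glucose, and 108 the reverse. Pearson's r of the 2 effects was 0.66 over 5841 genes, which are not independent replicates.

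The difference between the effects was tested as an interaction, the effect in sucrose minus the effect in glucose. It was called for 2431 genes (41.6%), 1220 more positive in sucrose (20.9%) and 1211 more negative (20.7%), and reached 2-fold for 111 and 65 of them. In the peroxisomal oxidation list, compiled after the values had been seen, 19 of 22 genes had a more positive effect in sucrose and none a more negative effect. Its medians were 1.32 in sucrose and 0.047 in glucose, and here too its count describes and does not test. FOX2 averaged 11.1 FPKM in Gcn5m and 13.0 FPKM in WT in glucose, an interaction of 2.80 ± 0.063. CTA1, LPX1 and CIT3 had interactions of 2.71 ± 0.089, 2.43 ± 0.12 and 2.37 ± 0.19. The largest were at EGO4 (3.15 ± 0.10), which was higher in Gcn5m in sucrose (1.32) and lower in glucose (−1.83 ± 0.074), and at YIG1 (2.94 ± 0.17).

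The histone genes differed by medium. Their median was 0.75 in sucrose and −0.29 in glucose, and 10 of 11 had a more positive effect in sucrose. General stress genes had medians of 0.40 in sucrose and −0.12 in glucose, with 38 of 56 more positive in sucrose and 9 more negative. SUC2 was lower in Gcn5m in sucrose but higher in glucose, where it averaged 104 FPKM in Gcn5m and 64.8 FPKM in WT (0.68 ± 0.054), an interaction of −1.04 ± 0.076.

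More negative effects in sucrose included PHO89 (−2.54 ± 0.065), PHO84 (−2.02 ± 0.094), PCK1 (−2.10 ± 0.14), ADE17 (−2.04 ± 0.055) and YRO2 (−2.04 ± 0.11). PHO89 stood at 187 FPKM in Gcn5m and 180.2 FPKM in WT in glucose. YJR120W also passed (−2.43 ± 0.55), but its Gcn5m libraries in sucrose spread widely (130.2, 527 and 487 FPKM in Gcn5m, against 664, 376 and 543 FPKM in WT). Iron genes were raised more in glucose (median 1.03) than in sucrose (0.73), and 17 of 30 had a more negative effect in sucrose. URA1, LEU1 and RNR1 were low in Gcn5m in both media, at −3.29 ± 0.051, −2.79 ± 0.082 and −2.23 ± 0.08 in glucose.

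**Figure D3:**
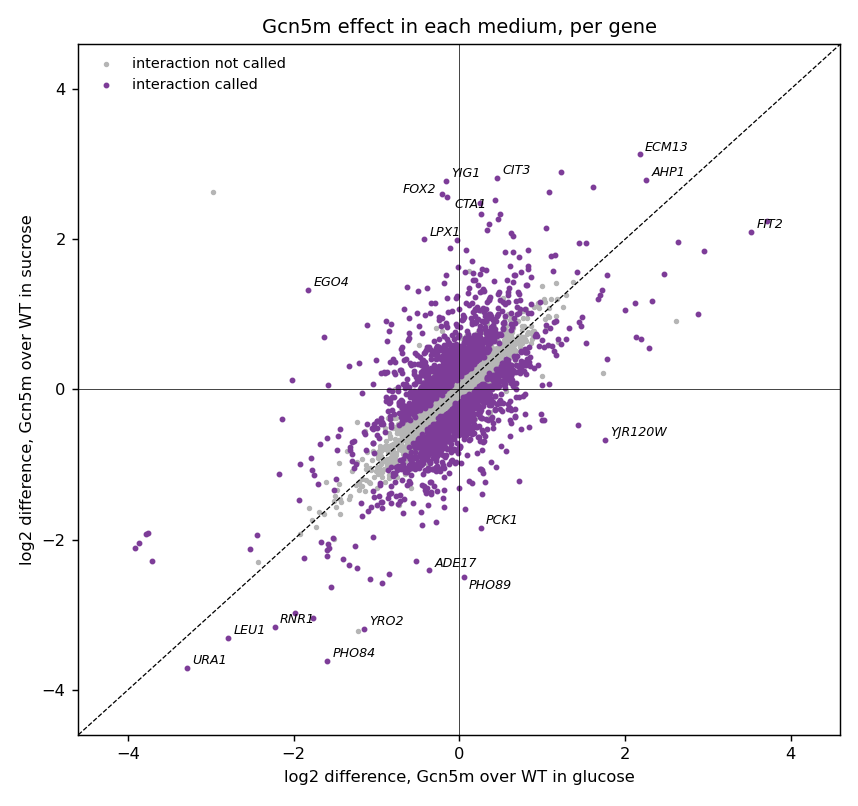
Log2 difference, Gcn5m over WT, of each gene in sucrose (vertical) and glucose (horizontal), with genes whose interaction was called in purple and a dashed line of equal effects; URA3, YIL177C and points beyond the axes are not drawn. FOX2, CTA1, LPX1, YIG1 and CIT3 lie high above the line, PHO89, PCK1 and ADE17 below it, and URA1 and LEU1 are low in both media.

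The sucrose response of WT was taken from the separate WT libraries of the Ada3 set, which share no library with the comparison and were normalized in another table. In them 2715 of 5830 genes were called between sucrose and glucose (46.6%), 1906 higher and 809 lower in sucrose. This split depended on scaling, with 1100 higher and 1502 lower under quantile normalization and 1047 higher and 1765 lower under median rescaling. The number of genes changed by at least 2-fold was 111 as deposited, 103 under quantile normalization and 95 under median rescaling. Whether the classes below hold the same genes under the other scalings was not tested. Of the 92 genes at least 2-fold higher in sucrose, 57 were higher and 23 lower in Gcn5m than in WT, with a median of 0.62. Spt7m, against the same WT libraries in sucrose, had 62 of them higher and 16 lower (median 0.60). Gcn5m against WT in glucose had 55 higher and 19 lower (median 0.26). In Ada3-3KR against its own WT, 21 of these 92 genes were higher and 59 lower (median −0.51). The WT libraries in sucrose of that comparison also set the classes. Genes picked as high in them lean toward lower values in Ada3-3KR, so this count describes and does not test. Of 1814 genes higher by less than 2-fold, 802 were higher and 504 lower in Gcn5m (median 0.093), and of 790 genes lower by less than 2-fold, 135 were higher and 536 lower (median −0.37). The 19 genes at least 2-fold lower split into 9 higher and 10 lower. Across 5817 genes, which are not independent replicates, r between the Gcn5m effect and this WT response was 0.25, and r between the Gcn5m effect and the Ada3-3KR effect in sucrose was −0.28.

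**Figure D4:**
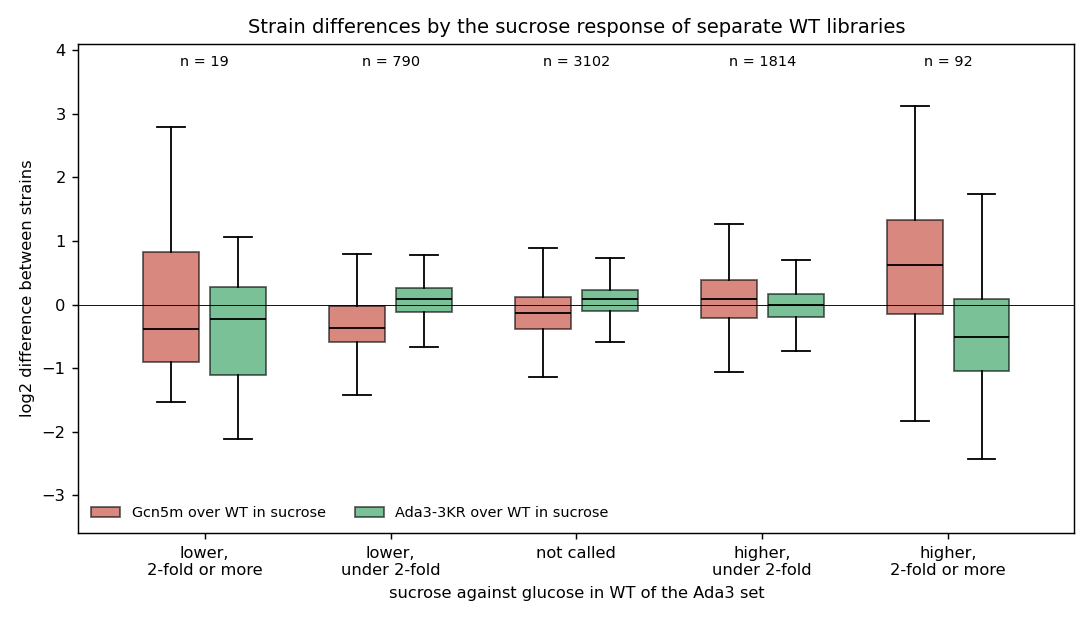
Log2 difference of Gcn5m over WT (red) and of Ada3-3KR over its own WT (green) in sucrose, for genes grouped by the sucrose response of the WT libraries of the Ada3 set; boxes span the quartiles, the line is the median, whiskers reach at most 1.5 times the box height beyond it and n counts the genes of the Gcn5m boxes. In the class higher by at least 2-fold the Gcn5m median is 0.62 and the Ada3-3KR median −0.51. The WT libraries in sucrose behind the green boxes also set the classes, and those behind the red boxes did not.

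The nearest strain was the other bromodomain mutant. Between Gcn5m and Spt7m libraries in sucrose, r on log2(FPKM + 1) was 0.986 to 0.992. In the direct test 1151 genes (19.7%) were called, 483 higher in Gcn5m (8.27%) and 668 lower (11.4%), and 748 were called without Spt7m replicate 3. The split depended on scaling, with 642 higher and 596 lower under quantile normalization and 553 higher and 678 lower under median rescaling. No called gene was at least 2-fold higher in Gcn5m and 35 were at least 2-fold lower. The respiratory chain and ATP synthase list separated the mutants: 32 of 36 genes were lower and 2 higher in Gcn5m than in Spt7m, with a median of −0.62. Spt7m against WT called 70.3% of genes (28.8% higher, 41.5% lower). Against the WT libraries that both comparisons share, the medians of the respiratory list were −0.32 for Gcn5m and 0.28 for Spt7m. CYC1 had 31.6, 35.4 and 27.8 FPKM in Gcn5m, against 109, 122 and 152 FPKM in Spt7m (−1.98 ± 0.13 for Gcn5m over Spt7m).

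LEU1 had 22.4, 22.7 and 22.6 FPKM in Gcn5m, against 116, 123 and 161 FPKM in Spt7m (−2.50 ± 0.082). PHO84 had 77.3, 81.1 and 74.2 FPKM in Gcn5m, against 295, 314 and 381 FPKM in Spt7m (−2.07 ± 0.067). Both mutants lay below WT at these genes, and Gcn5m lay lower than Spt7m. TIR1, a cold-shock mannoprotein, SIP18, a desiccation-linked protein, and URA3 were also lower in Gcn5m than in Spt7m, by 2.35, 2.09 and 5.09. Among general stress genes, 37 of 56 were lower and 3 higher in Gcn5m than in Spt7m, although both mutants were above WT by the median (0.40 for Gcn5m and 0.61 for Spt7m). Ergosterol genes had 17 of 26 lower and cell wall genes 20 of 31 lower in Gcn5m than in Spt7m. In the other direction, 18 of 30 iron genes were higher in Gcn5m and none lower, and 32 of 102 ribosome biogenesis genes were higher and 3 lower. The largest such differences were small, at CHA1, the catabolic serine deaminase (0.62 ± 0.059), GTO3, a glutathione transferase (0.58 ± 0.08), YLR108C (0.58 ± 0.09), HXT3 (0.53 ± 0.045), TIS11 (0.52 ± 0.059) and BNA2, which opens the route from tryptophan to NAD (0.50 ± 0.068).

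**Figure D5:**
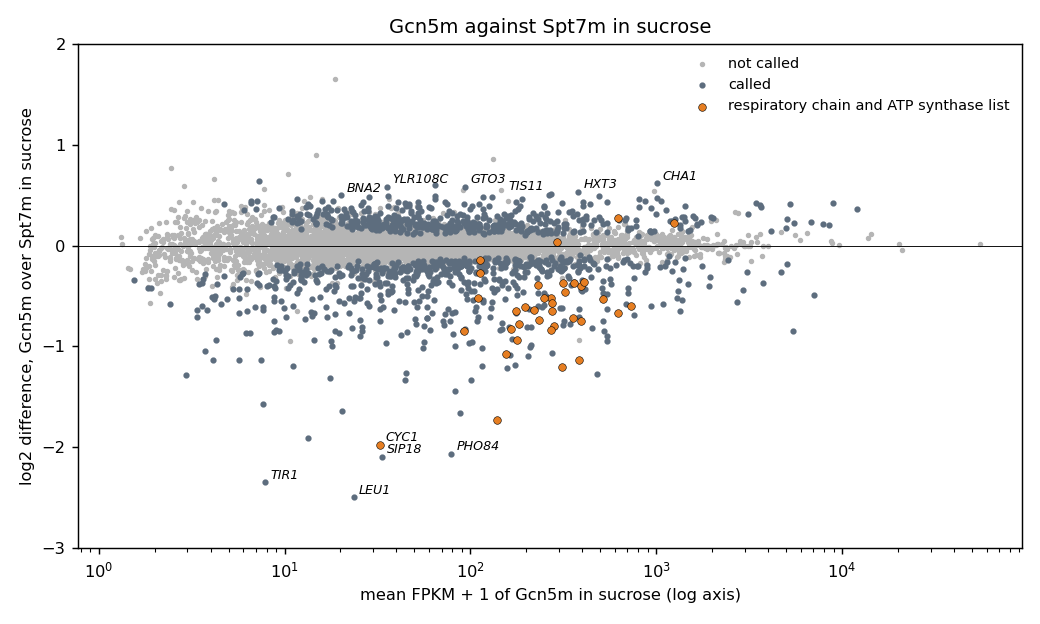
Log2 difference, Gcn5m over Spt7m in sucrose, of each gene against its mean FPKM + 1 in Gcn5m (log axis), with called genes dark and the respiratory chain and ATP synthase list in orange; URA3 (−5.09 ± 0.24), YIL177C and points beyond the axes are not drawn. Most orange points lie below 0, and LEU1, TIR1, SIP18, PHO84 and CYC1 lie lowest among the named genes.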

How the data were processed

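The study measured total RNA of yeast cells with RNA-seq libraries made with an Illumina TruSeq kit. The authors deposited tables of FPKM per gene, 1 for the Ada3 set and 1 for the bromodomain set, and no read counts, so depth per library is unknown and no counting interval can be given. Genome build R64 and the tools HISAT2 2.1.0, cutadapt 1.16 and StringTie 1.3.3b appear in the submitters' processing notes, with no role given. The counting of reads from near copies and the strand setting are not given in the sources used here.

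From the deposited FPKM, log2(FPKM + 1) was taken for 5841 genes averaging 1 FPKM or more over the 18 libraries of the bromodomain set, and limma 3.58.1 (R 4.3.3) was fitted with a mean for each group and a variance trend. Gcn5m against WT in sucrose was the main contrast, and the glucose contrast, their difference and Gcn5m against Spt7m came from the same fit. The Ada3 set (12 libraries, 5830 genes) was fitted apart, as the tables were normalized separately. Calls were made at p under 0.05 after Benjamini-Hochberg adjustment over all genes tested. Groups follow the sample titles. Gene names were matched to the RefSeq table for 6093 of 6101 genes, after 2 names that had become dates were restored. Near copies were found with BLAST 2.17.0 (at least 90% identity over 50% of the gene). Motifs were searched in 250 bases, from 350 to 101 bases before each start codon, and the 100 bases next to it were left out.

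The gene lists (45, plus 3 compiled after their values were seen) and the comparisons were chosen with earlier results of these data known. Genes named in the text are GCN5 and SAGA subunits, the 15 called protein-coding genes with the largest difference in each direction (average of 5 FPKM or more, no overlap between strains), up to 4 called members of each list with at least 3 called, 6 extremes in each direction of the interaction and of Gcn5m against Spt7m, the strain markers, called alpha-type markers, and PHO84, INO1, SUC2, ADH2, HSP12, GAL1, HXK1 and HXT7. SER3 was named after its values were seen. The fits were tested on simulated data. Alternatives were another pseudocount (0.1), filters of 0 and 5 FPKM, quantile normalization, median rescaling, the compared groups alone, a replicate block, no variance trend, leaving out each library and, chosen after seeing the data, counting Gcn5m replicates 1 and 2 as 1 sample. 1 gene that the naming rule picked is not reported here.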

Additional observations from a re-analysis of the deposited data

Results flagged for a closer look

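The effect of the Gcn5 mutation differed between sucrose and glucose at 2431 genes by limma's interaction term (Benjamini-Hochberg adjusted p under 0.05), and the 6 largest differences in each direction are given here as log2 values, sucrose minus glucose. More positive effects in sucrose were found at EGO4 (3.15), YIG1 (2.94), FOX2 (2.80), CTA1 (2.71), LPX1 (2.43) and CIT3 (2.37). More negative effects in sucrose were found at PHO89 (−2.54), YJR120W (−2.43), PCK1 (−2.10), ADE17 (−2.04), YRO2 (−2.04) and PHO84 (−2.02).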

How the results depend on the processing

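The count of genes called between Gcn5m and WT in sucrose was 3890 to 3944 when any of the 6 libraries was left out, 3915 with Gcn5m replicates 1 and 2 counted as 1 sample, and 3942 to 4155 over the other settings, against 4125 as reported. Scaling changed its split to 2006 higher and 2094 lower with quantile normalization and 1989 higher and 2121 lower with median rescaling. With the replicate number as a block, 1645 genes were higher and 2485 lower. The deviations of same-numbered libraries correlated at 0.34, −0.15 and 0.25. Libraries with different numbers were not compared in this way, so these values cannot decide whether the numbers pair the samples. The other counts stayed within 1.5 times their reported value, except Gcn5m against Spt7m, where leaving out a library gave 748 (without Spt7m replicate 3) to 1022 calls against 1151. The cause was not tested. Of the 204 named genes that were called, 10 lost the call in at least 1 of 15 alternatives (AHC2, BIO3, HIS3, HMLALPHA2, MF(ALPHA)2, SPT7, SPT8, TAF12, TAF6 and TIR3) and none reversed; 7 genes named without a call gained one in at least 1. The 8 SAGA core subunits called lower became 5 without Gcn5m replicate 3, and the 2 acetyltransferase module members called higher became 1 without Gcn5m replicate 1 or WT replicate 3. Depth cannot be read from FPKM, so differences of genes near 1 FPKM are the least certain.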
